A study of Mus musculus with 2 samples.

Results

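The transcripts of 7 genes were followed in colonies/organoids that mouse mammary basal cells formed in the presence or absence of TNF-α: the colony-stimulating factor genes Csf1, Csf2 and Csf3, the LIF family ligand genes Lif and Clcf1, and the receptor genes Lifr and Osmr. They were found by gene name, and all 7 were among the 49492 genes of the deposited count table. Basal cells (CD24+ CD29hi, negative for CD45, CD31 and TER119) were sorted from mammary glands of wild-type adult female mice, which were 8 to 10 weeks old per the methods, and were grown in matrix gel in medium with 50 ng/mL EGF and ITS, without (control) or with 10 ng/mL recombinant mouse TNF-α. The labels give 10 days of culture, and the methods give 7 to 14 days for such cultures. There was 1 control library with 44462275 counts and 1 TNF-α library with 53487087 counts, so differences carry no replicate check and no p-value, and a difference between single cultures and an effect of the treatment cannot be told apart.

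Colony-stimulating factors are secreted proteins that support the growth and survival of myeloid cells. CSF1 (M-CSF) maintains macrophages through its receptor CSF1R, CSF2 (GM-CSF) acts on granulocytes, macrophages and dendritic cells, and CSF3 (G-CSF) drives the production of neutrophils. LIF and CLCF1 belong to the cytokines that signal through the shared receptor chain gp130, encoded by Il6st. LIF binds LIFR, CLCF1 binds CNTFR together with LIFR, and OSMR is the chain that pairs with gp130 for oncostatin M. Receptors with gp130 work through JAK kinases and chiefly STAT3, the GM-CSF receptor works chiefly through JAK2 and STAT5, and CSF1R is itself a tyrosine kinase. In the mammary gland, CSF1 is known for recruiting macrophages during development, and LIF is known as the signal that activates STAT3 when involution begins.

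The sequences shown first are the AU-rich stretches of the ligands, since repeats of ATTTA are known as elements that shorten the life of cytokine mRNAs. In the 3' untranslated regions of the GENCODE M21 transcripts on GRCm38, taking the longest of each gene, the 7-base element TATTTAT occurred 9 times in Csf2, 5 times in Lif, 4 times in Clcf1, 2 times in Csf3 and 1 time in Csf1, overlapping copies counted. It occurred 0 times in Lifr and 0 times in Osmr, although these regions are long (6320 and 1794 bases) and held 11 and 4 copies of the shorter ATTTA. Thus all 5 ligands and neither receptor held TATTTAT, where 27.6% of all 21020 genes with such a region held it at least once. The share rises with length, and among genes with regions within 1.5 times the length of the member's it was 8.43% for Csf2 (317 bases), 17.5% for Csf3, 24.3% for Clcf1, 42.6% for Csf1, 53.1% for Lif, 38.3% for Osmr and 72.1% for Lifr. For each ligand, the 27 bases with the most copies of ATTTA are given, with ATTTA in capitals.
Csf2: ttaaatATTTATTTATTTATTTATTTA
Csf3: agtttATTTAtctctATTTAatATTTA
Lif: tgtctATTTAttactatgtcctATTTA
Clcf1: tATTTATTTAtttggagatgttATTTA
Csf1: atataaggtcATTTAaatatctATTTA
The Csf2 stretch is an unbroken run of 5 overlapping copies. In Csf1 and Lif the copies in the stretch numbered 2.

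Promoter windows of 300 bases, from 250 before to 50 after the start of the gene, were matched in RefSeq (GRCm38.p6) for 5 of the 7 members, and not for Csf3 and Clcf1. They were searched on both strands for the NF-κB consensus, for the STAT motif TTCNNNGAA and for the AP-1 motif TGANTCA, which 4.51%, 8.3% and 7.81% of all 32851 windows held. Csf1 held 1 match to the NF-κB consensus, from -154 to -145 relative to the start site. Lif held 1 AP-1 match from -228 to -222, and Osmr 1 AP-1 match from 4 to 10. Neither the Csf2 window nor the 2 Lifr windows held any of the 3 motifs. The start site of the RefSeq window was that of the count table for Csf1 and lay 11 bases from it for Lif, but 232 bases away for Csf2 and 656 bases away for Osmr, and 13 and 10983 bases away for the Lifr windows. The windows of Csf1 (minus strand, chr3:107760420-107760719) and Lif (plus strand, chr11:4257318-4257617) are given because these genes had the largest differences among the well counted members, with the matches in capitals. A match is a run of letters and not a measured binding site.
Csf1: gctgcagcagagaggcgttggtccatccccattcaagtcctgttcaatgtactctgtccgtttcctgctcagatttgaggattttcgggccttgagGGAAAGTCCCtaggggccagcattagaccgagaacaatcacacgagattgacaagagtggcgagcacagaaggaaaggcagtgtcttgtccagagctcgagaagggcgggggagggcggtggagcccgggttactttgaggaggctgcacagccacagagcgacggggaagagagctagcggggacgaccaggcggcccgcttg
Lif: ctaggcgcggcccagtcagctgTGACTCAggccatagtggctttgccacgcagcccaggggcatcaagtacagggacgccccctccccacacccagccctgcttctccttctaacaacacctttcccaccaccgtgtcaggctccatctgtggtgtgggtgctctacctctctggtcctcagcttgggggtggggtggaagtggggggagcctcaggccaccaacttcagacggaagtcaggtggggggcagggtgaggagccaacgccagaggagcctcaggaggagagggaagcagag

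For the comparison, counts were divided by library sizes scaled with the TMM method (by which the size of the TNF-α library was 1.2 times that of the control) to give CPM, the counts of a gene per 1e6 counts of its scaled library. Genes were compared by the log2 of the CPM with TNF-α over the CPM of the control, a prior count of 2 being added. This was done for 20771 genes whose counts in both libraries together reached 10, and all 7 members were among them. Each ratio is given with a 95% Clopper-Pearson interval for counting error, which leaves out the spread between cultures. The interval was computed from the counts without the prior count, so for rarely counted genes it is not centred on the ratio given. A count of 10 was worth 0.224 CPM without and 0.187 CPM with TNF-α. Over all genes compared, the median log2 ratio was 0.00, with the 5th and 95th percentiles at -1.20 and 1.42. For the 9345 genes with at least 1000 counts these percentiles were -0.61 and 0.71.

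Of the 7 members, 1 was more than 2-fold higher in the TNF-α library (Csf2) and 1 was more than 2-fold lower (Csf3), where 8.56% of all genes compared were higher by that measure and 6.62% lower. Both are rarely counted genes with 20 and 59 counts in all. At 1.5-fold, Csf1 and Lif were also higher, making 3 of 7 (15.5% of all genes), and Csf3 remained the only one lower (13.7% of all genes). With the stricter demand that the whole counting interval lie past 2-fold, which 3.74% of all genes met as higher and 2.70% as lower, 0 of the 7 members were called. In bulk RNA, fewer cells of a type and less RNA per cell cannot be told apart. The median log2 ratio of the members was 0.24, and 4 of them were above 0 and 3 below. In the plot of members by library, Csf2 and Csf3 lie below the other 5 members in both libraries.

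**Figure D1:**
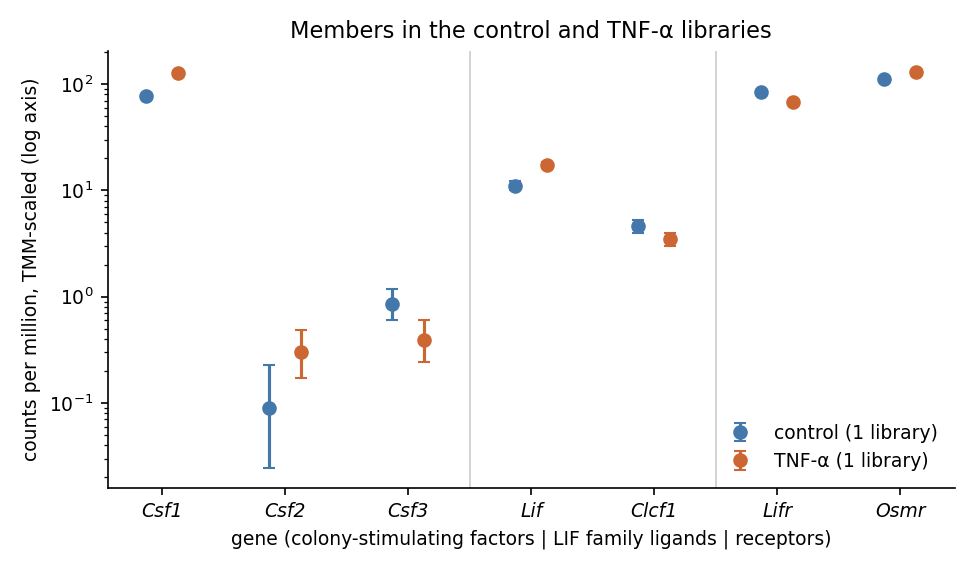
CPM (TMM-scaled, log axis) of the 7 members in the control library (blue) and the TNF-α library (orange). Bars are 95% exact Poisson intervals for counting error and are hidden behind the points where they are narrow. Csf1 and Lif lay higher with TNF-α, at 126 and 17.3 CPM against 77.6 and 11.1 CPM, while the intervals of Csf2 overlap between libraries.

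Among the colony-stimulating factors, Csf1 was by far the most abundant. Csf1 (chromosome 3, 107741048 to 107760469, minus strand, GRCm38) had 3460 counts in the control library and 6736 with TNF-α, or 77.6 and 126 CPM. The TNF-α library was higher by 1.63 times in CPM, a log2 ratio of 0.70 (95% counting interval 0.64 to 0.76). This ratio was above those of 87.1% of all genes compared and of 94.9% of genes with at least 1000 counts.

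Csf2 (chromosome 11, 54247271 to 54249667, minus strand) was near the limit of detection. It had 4 counts in the control library and 16 with TNF-α, or 0.0898 and 0.3 CPM, a log2 ratio of 1.38 (95% counting interval 0.11 to 3.78). The prior count lowers this ratio from 3.34 times in CPM to 2.61 times. Its Poisson intervals in the 2 libraries overlapped, from 0.0245 to 0.23 CPM without and from 0.171 to 0.487 CPM with TNF-α. Even numbers were in excess among low counts, as counting each end of a read pair can leave them. With all counts halved, the interval of the log2 ratio of Csf2 ran from -0.59 to 5.01 and included 0. Of its exon bases, 96 are shared with Gm12223 on the opposite strand, which had 4 and 6 counts, and whether counting used the strand is not given in the sources used here, so the counts of Csf2 are uncertain.

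Csf3 (chromosome 11, 98701263 to 98703629, plus strand) went the other way. It had 38 counts in the control library and 21 with TNF-α, or 0.853 and 0.394 CPM, a log2 ratio of -1.04 (95% counting interval -1.96 to -0.31). Its call was close to the threshold, since with a prior count of 5 the log2 ratio was -0.95 and Csf3 was no longer called. With counts halved the log2 ratio was -1.03, with an interval from -2.45 to -0.01. The 3 colony-stimulating factor genes did not share a direction, and nearly all of their summed counts came from Csf1 (3460 of 3502 in the control library and 6736 of 6773 with TNF-α).

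The LIF family ligands differed from each other in direction. Lif (chromosome 11, 4257557 to 4272514, plus strand) had 496 counts in the control library and 921 with TNF-α, or 11.1 and 17.3 CPM, a log2 ratio of 0.63 (95% counting interval 0.47 to 0.79). This was above 85.7% of all genes compared and 93.9% of genes with at least 1000 counts. Clcf1 (chromosome 19, 4214238 to 4223490, plus strand) had 205 and 186 counts, or 4.6 and 3.49 CPM, a log2 ratio of -0.40 (95% counting interval -0.69 to -0.11). Its interval with halved counts, from -0.81 to 0.03, included 0. The ratio of Lif to Clcf1 within a library, in counts per base of exon, needs no library scaling and was 2.07 in the control library and 4.23 with TNF-α, a log2 difference of 1.03 (95% counting interval 0.71 to 1.36). The ratio of Csf1 to Lif, by contrast, was 5.75 and 6.02, and the interval of its log2 difference, from -0.10 to 0.24, included 0.

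The receptor genes Lifr and Osmr, which lie 255 kb apart on chromosome 15 on opposite strands, showed small differences of opposite sign. Osmr (6813577 to 6874969, minus strand) had 4932 counts in the control library and 6993 with TNF-α, or 111 and 131 CPM, a log2 ratio of 0.24 (95% counting interval 0.19 to 0.30). Lifr (7129559 to 7197489, plus strand) had 3725 and 3594 counts, or 83.6 and 67.4 CPM, a log2 ratio of -0.31 (95% counting interval -0.38 to -0.24). Both ratios fall between the 5th and 95th percentiles of genes with at least 1000 counts, and Osmr lay above 79.3% and Lifr above 15.3% of those genes. Within a library, Osmr per length was 1.13 times Lifr in the control and 1.66 times Lifr with TNF-α, a log2 difference of 0.56 (95% counting interval 0.47 to 0.64).

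**Figure D2:**
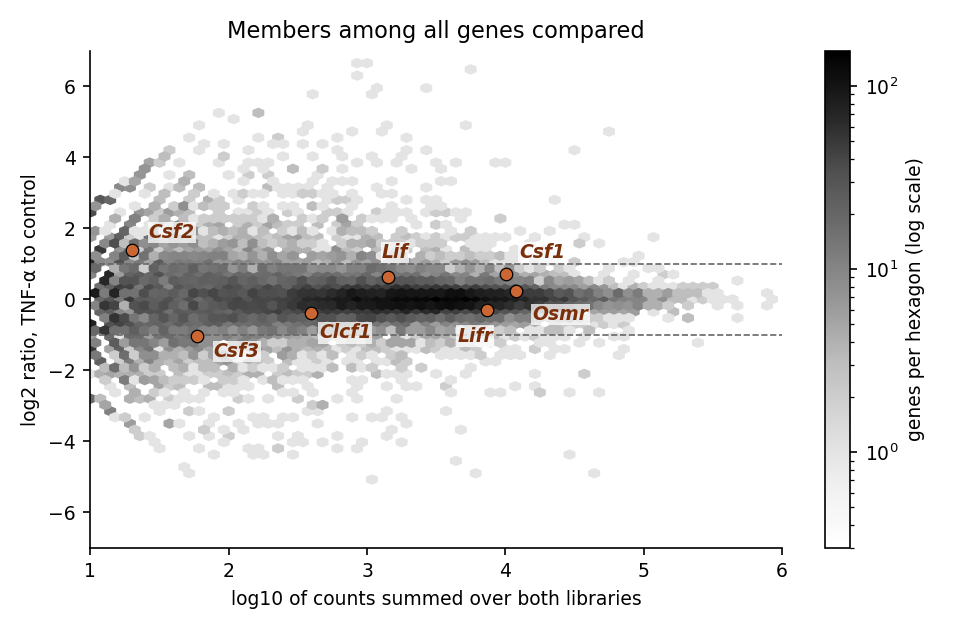
Log2 ratios (TNF-α to control) against the log10 of the summed counts for all 20771 genes compared (grey hexagons, shaded by the number of genes) and the 7 members (orange points). Dashed lines mark 2-fold. Csf2 at 1.38 and Csf3 at -1.04 lie where rarely counted genes scatter widely, and the other 5 members lie between the lines.

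Compared per length, as counts per kilobase of exon and 1e6 scaled counts (RPKM), the order of the members' levels was the same in both libraries down to the fifth place. In the control library Csf1 was highest at 14.7 RPKM, followed by Osmr at 9.14, Lifr at 8.09, Lif at 2.56, Clcf1 at 1.24, Csf3 at 0.603 and Csf2 at 0.112 RPKM. With counts as deposited, the counting intervals of neighbours in this order did not overlap. The place of Csf2 rests on 4 counts, which are uncertain for the reasons given above. Length is the summed exon length of a gene, 12113 bases for Osmr, 10330 for Lifr and 5281 for Csf1. Where the transcripts present hold fewer of these bases, the level given is too low, so the order also depends on the lengths used. In the TNF-α library the levels were 23.9 RPKM for Csf1, 10.8 for Osmr, 6.52 for Lifr, 3.97 for Lif and 0.939 for Clcf1. Csf2 at 0.375 and Csf3 at 0.279 RPKM had changed places there, but their intervals (0.214 to 0.609 and 0.172 to 0.426) overlapped, so their order in that library is not resolved.

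The other genes of these pathways were described by 6 lists holding 52 genes, of which 46 had enough counts to compare. Of these 46, 3 passed 2-fold as higher with TNF-α (Bcl3, Cd14 and Cntfr) and 3 as lower (Csf2rb2, Il6ra and Stat5a), with a median log2 ratio of 0.07. These are 6.52% in each direction, beside 8.56% and 6.62% of all genes. The same shares of all genes stand beside the counts called in the single lists below.

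Receptors for the colony-stimulating factors were low, apart from Csf2ra. Csf1r had 92 counts in the control library and 81 with TNF-α, or 0.423 and 0.311 RPKM, so the transcript of the CSF1 ligand stood far above that of its receptor in both libraries. Csf2ra, the GM-CSF binding chain, had 621 and 514 counts, a log2 ratio of -0.53 (95% counting interval -0.70 to -0.36). Its shared signalling chain Csf2rb had 20 and 22 counts, and the G-CSF receptor Csf3r had 8 and 10. Of the 6 genes of this list, 0 were called higher and 1 lower (Csf2rb2, 14 counts against 4, a near-identical copy of Csf2rb whose reads may be split between both genes). Il34, which encodes the second ligand of CSF1R, was the highest of the list by log2 ratio at 0.23 (102 and 144 counts, 95% counting interval -0.14 to 0.62).

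Of the other receptor chains of the gp130 family, the shared chain gp130 itself was the most abundant. Il6st had 9216 counts in the control library and 16914 with TNF-α, or 18.6 and 28.6 RPKM, a log2 ratio of 0.62 (95% counting interval 0.58 to 0.65). Cntfr, the chain to which CLCF1 binds, was the highest of the list, with 787 and 2524 counts and a log2 ratio of 1.42 (95% counting interval 1.31 to 1.54). Il6ra, the chain that binds interleukin-6, was the lowest, with 447 and 144 counts and a log2 ratio of -1.88 (95% counting interval -2.18 to -1.62). Together, 1 of the 6 compared genes of this list was called higher and 1 lower, and the median was -0.12.

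Set against the shared chain, both member receptors were lower with TNF-α. Lifr per length was 0.434 of Il6st in the control library and 0.228 with TNF-α, a log2 difference of -0.93 (95% counting interval -1.0 to -0.85). Osmr was 0.49 and 0.379 of Il6st, a log2 difference of -0.37 (95% counting interval -0.44 to -0.31). Cntfr, in turn, was 0.784 of Lifr in the control library and 2.61 times Lifr with TNF-α. These pairs, and those of Lif with Clcf1, Csf1 with Lif and Osmr with Lifr above, were chosen after the values were seen.

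**Figure D3:**
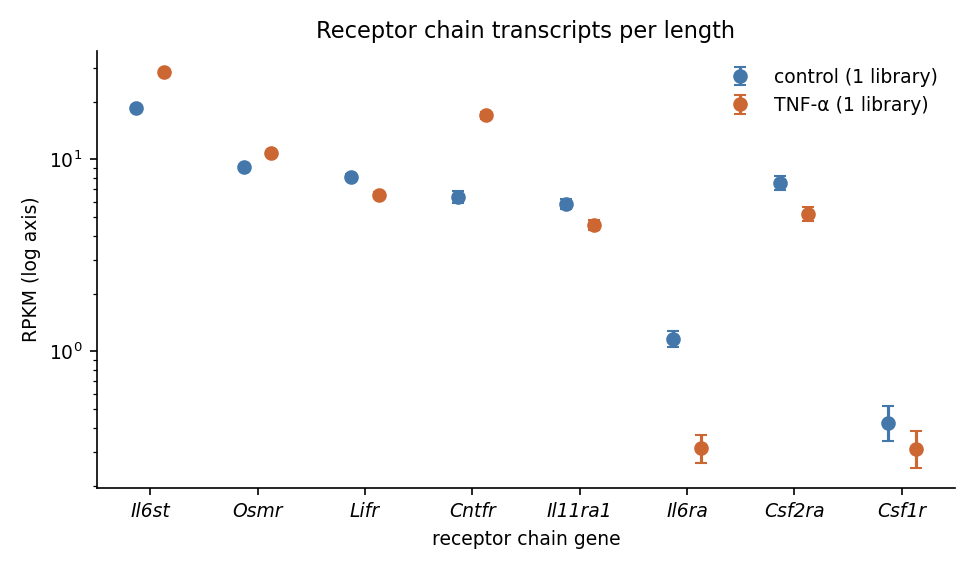
RPKM (log axis) of 8 receptor chain genes in the control library (blue) and the TNF-α library (orange), with 95% exact Poisson intervals for counting error. Il6st and Cntfr are higher with TNF-α, at 28.6 and 17.0 RPKM against 18.6 and 6.35, and Il6ra is lower, at 0.312 against 1.16.

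Among the other ligands of the gp130 family, Ctf1, which encodes cardiotrophin 1 and also acts through LIFR, was the best counted, with 207 counts in the control library and 346 with TNF-α (log2 ratio 0.48, 95% counting interval 0.23 to 0.74). Cntf was the highest at 0.67 with 25 and 49 counts and an interval from -0.01 to 1.47, and Il11, the gene of interleukin-11, was the lowest at 0.06 with 24 and 30 counts and an interval from -0.76 to 0.90. Osm, the ligand of OSMR, had 0 counts in both libraries, and a level of 3 counts, taken as the limit that a count of 0 allows, is 0.0673 CPM without and 0.0562 CPM with TNF-α. Il6 had 4 and 3 counts. In all, 4 of the 9 genes of this list could be compared, with a median of 0.37, and 0 were called in either direction.

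Genes that relay these signals were well counted in both libraries. Stat3, the main transcription factor of the gp130 receptors, had 13950 counts in the control library and 24469 with TNF-α, a log2 ratio of 0.55 (95% counting interval 0.52 to 0.58). Jak2, the kinase of the receptor for GM-CSF, was the highest of the relay list at 0.68 (2858 and 5500 counts, 0.62 to 0.75). Stat5a, a STAT that acts in the mammary gland downstream of prolactin and in myeloid cells downstream of GM-CSF, was the lowest at -1.15 (5462 and 2942 counts, -1.22 to -1.09). Of the 9 relay genes, 0 were called higher and 1 lower, with a median of -0.02.

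Of the 9 inhibitors of this pathway, 0 were called in either direction. Cish was the highest at 0.69 (100 and 195 counts, 95% counting interval 0.35 to 1.07). Socs3, which binds gp130 and is itself switched on by STAT3, was the lowest, with 3956 counts in the control library and 2992 with TNF-α and a log2 ratio of -0.66 (95% counting interval -0.73 to -0.59).

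A list of 13 genes that respond to STAT3 had a median log2 ratio of 0.16. Of these, 2 genes were called higher (15.4%, beside 8.56% of all genes) and 0 lower (beside 6.62% of all genes). Bcl3, a partner of NF-κB subunits, was the highest, with 53 and 211 counts and a log2 ratio of 1.70 (95% counting interval 1.29 to 2.20). Cd14, a coreceptor for lipopolysaccharide, had 276 and 756 counts, a log2 ratio of 1.19 (0.99 to 1.40). Socs3 is also in this list and was its lowest gene. Igfbp5, which is linked to involution, had 327764 and 434751 counts and a log2 ratio of 0.15, and Cebpd, another gene of that program, had 457 and 655 counts and a log2 ratio of 0.26 (0.08 to 0.44). The genes of the list thus covered a range from -0.66 to 1.70. Several of them, Bcl3 and Cd14 included, are also known to respond to other signals.

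**Figure D4:**
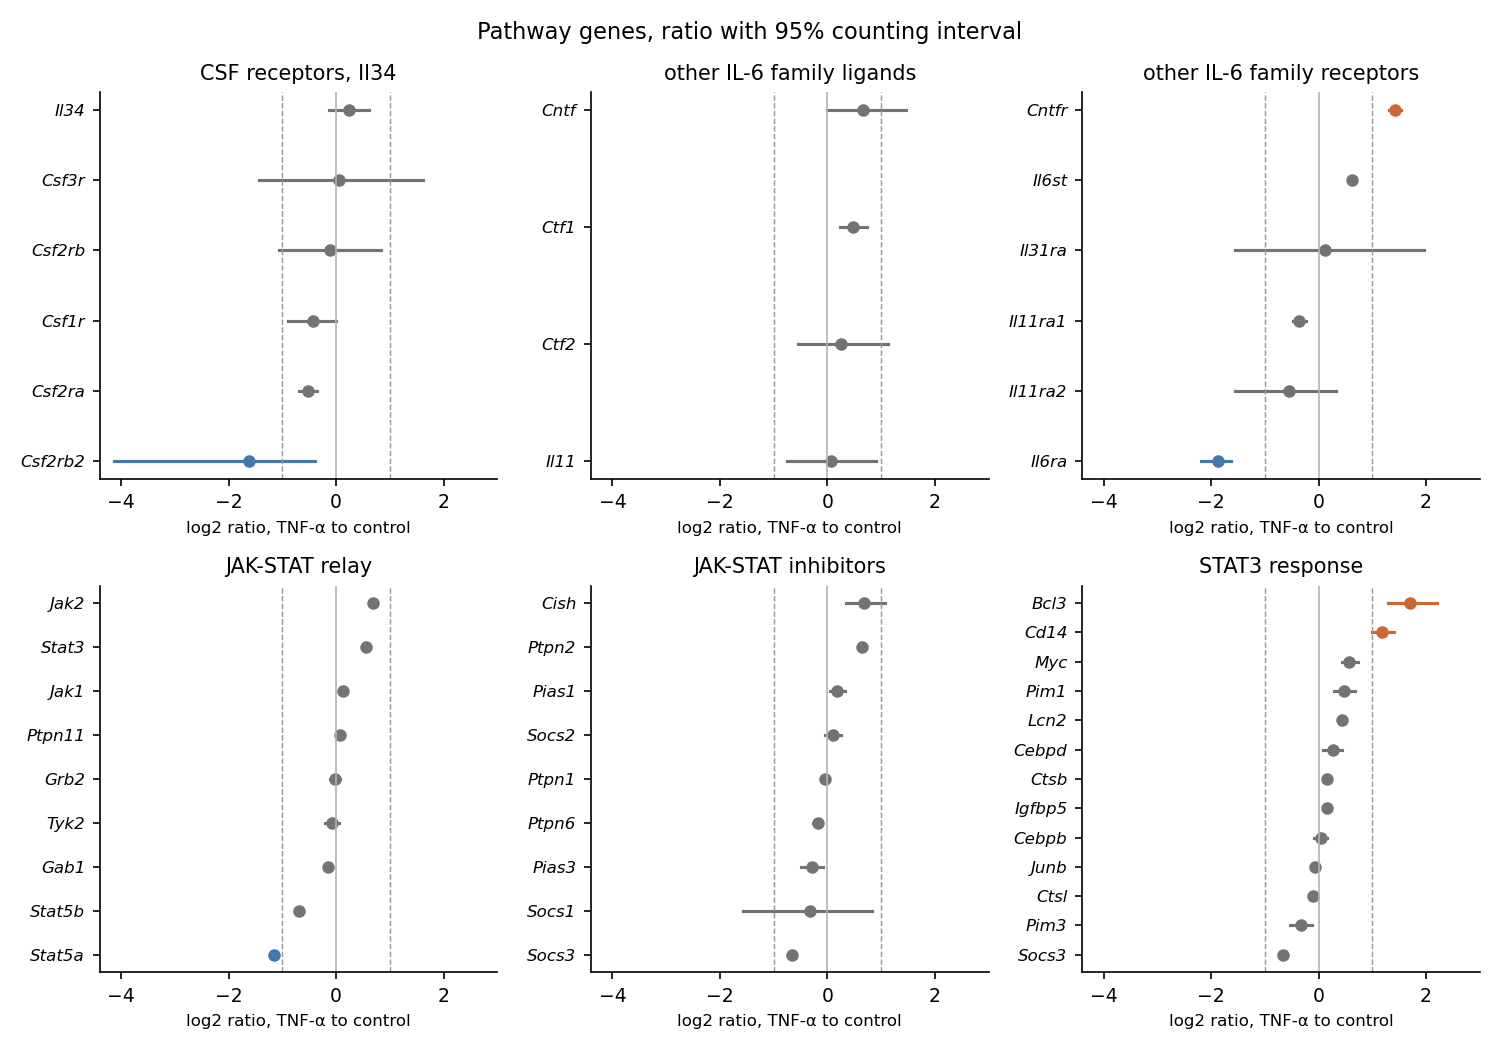
Log2 ratios (TNF-α to control) with the 95% counting interval for the 46 compared genes of 6 pathway lists, where Socs3 stands in 2 of them. Orange points are more than 2-fold higher, blue points more than 2-fold lower, grey points lie between, and dashed lines mark 2-fold. Bcl3 is the highest at 1.70 and Il6ra the lowest at -1.88.

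The cells behind these transcripts were checked against marker genes. Basal markers were abundant, as Krt14 had 5155 CPM in the control library and 4871 CPM with TNF-α. The 9 basal markers summed to 12151 CPM without and 11241 CPM with TNF-α. They did not share a direction, with 4 above 0 and 5 below, a median log2 ratio of -0.08 and a range from -1.19 to 0.31. Of them 0 were called higher and 1 lower (Oxtr, log2 ratio -1.19), or 11.1% beside 6.62% of all genes. Luminal markers were also present, with Krt8, the best counted, at 1213 and 1132 CPM, so these colonies held transcripts of both epithelial layers. The 9 luminal markers were lower with TNF-α as a list, summing to 4249 CPM without and 3451 CPM with it, with 8 of 9 below 0 and a median log2 ratio of -0.84. These markers ranged widely, from -1.54 (Pgr) to 0.29 (Epcam), with Krt8 at -0.10. Of them 3 were called lower (Prlr, Esr1 and Pgr), or 33.3% beside 6.62% of all genes, and Krt19 had a log2 ratio of -0.84. The part of this difference in the members' values was not tested. The 8 fibroblast markers, with Col1a2 the best counted, summed to 545 and 544 CPM. They did not share a direction, with 5 above 0 and 3 below and log2 ratios from -0.93 to 1.39. Of them 1 was called higher (Dcn, 184 and 582 counts, log2 ratio 1.39), or 12.5% beside 8.56% of all genes. The 20 leukocyte and macrophage markers, which include Csf1r, summed to 13.9 CPM without and 10.2 CPM with TNF-α, with Mertk the best counted. Only 10 of the 20 could be compared, with 9 below 0 and a median log2 ratio of -0.44, and of these 10, 0 were called higher and 1 lower (C1qa, 8 and 3 counts). Of the other 10, 5 had 0 counts in both libraries. The macrophage marker Adgre1 had 0 and 2 counts and the pan-leukocyte marker Ptprc 26 and 38. The 6 endothelial markers summed to 8.19 and 7.7 CPM, with Cdh5 the best counted. Of these, 5 could be compared, with 4 below 0 and 0 called. Whether the members' transcripts came from epithelial cells or from the cells that carry the fibroblast markers was not tested.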

How the data were processed

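RNA-seq libraries of colonies/organoids from mouse mammary basal cells were compared, 1 control and 1 TNF-α library. The authors deposited raw read counts for each gene with its exons, strand and summed exon length. The series' title speaks of microarrays, but the values are counts. The submitters' processing notes name GRCm38 (mm10). The aligner, counting tool and strand setting are not given in the sources used here. A count of 2 was found for 2172 genes of the control library and a count of 1 for 618, so read ends may have been counted singly and the counting intervals may be too narrow. Totals were 44462275 and 53487087 counts, and 10 counts were worth 0.224 and 0.187 CPM.

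Library sizes were scaled by TMM (edgeR 4.0.16, R 4.3.3), a prior count of 2 was added, and genes whose counts reached 10 in all were called past 2-fold. Intervals (95%, Clopper-Pearson for ratios, Poisson for levels, normal for ratios of gene pairs) cover counting error only and treat reads as independent. Reads copied from the same molecule would not be independent, which is another way the intervals may be too narrow. With 1 library per group, edgeR's quasi-likelihood test and DESeq2 could not be fitted. RPKM and the ratios of gene pairs used the deposited exon lengths. Levels between genes thus depend on these lengths, which cancel in the log2 difference of a pair between the libraries. Promoters came from RefSeq (GRCm38.p6) and transcripts from GENCODE M21. Statistics and plots used scipy 1.17.1, pandas 2.3.3, numpy 2.4.6 and matplotlib 3.10.9 in Python 3.11.15.

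The members and lists were chosen with earlier results of these data known, and some pathway genes are not reported here. Named genes are the 7 members, the highest and lowest gene of each pathway list, pathway genes past 2-fold with at least 100 counts, the nearest genomic neighbours, the 2 genes nearest to a member in log2 CPM and the best counted markers. Csf1r, Csf2ra, Csf2rb, Csf3r, Il6st, Osm, Il6, Ctf1, Stat3, Igfbp5, Cebpd and the markers Adgre1, Krt19, Epcam and those called were chosen after their values were seen. Alternatives were total counts, DESeq2 (1.42.0) size factors, upper quartile scaling, other filters, prior counts of 0.5 and 5, halved counts, a fold of 1.5 and whole intervals past 2-fold.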

Additional observations from a re-analysis of the deposited data

How the results depend on the processing

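No paired analysis was possible because each group had 1 library. For the same reason, leaving out a replicate was not an option. Across 8 alternatives of scaling, filter, prior count and halving, all 54 log2 ratios of single members stayed inside their counting intervals and kept their sign. Much of this was fixed in advance. The filters leave a member's ratio unchanged, and the scalings hardly differed, from 1.197 (TMM) to 1.205 (upper quartile) for the size of the TNF-α library over the control. Csf2 ranged from 1.07 to 1.63 and Csf3 from -1.10 to -0.95. The median of the members was between 0.23 and 0.24. With a prior count of 5, which pulls low counts toward 0, 0 members were lower. With at least 1 CPM in either library, Csf2 and Csf3 were left out by construction, 0 members were higher and 0 lower, and 836 genes in all were higher and 658 lower. With no filter beyond 1 count these were 2679 and 2996, and 5 other pathway genes were higher. At 1.5-fold, a lower threshold, 3 members, 8 other pathway genes and 3210 of all genes were higher, and 5 other pathway genes and 2846 of all genes were lower. With whole counting intervals past 2-fold, 0 members were higher and 0 lower, and 776 and 561 of all genes were. Depth limits Csf2, Csf3 and Csf2rb2, each with under 100 counts.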

Other observations

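The genomic neighbours of the members mostly differed little between the libraries. Med24, 0.962 kb from Csf3, had a log2 ratio of -0.08, and Psmd3 on its other side, 5.28 kb away, had -0.34. Gatsl3 and Mtmr3, the nearest counted genes on either side of Lif, had 0.07 and -0.14. Rad9a and Pold4, which flank Clcf1, had 0.57 and -0.12, and Ahcyl1 beside Csf1 had -0.16. On its other side, Gm5075 had 6 and 4 counts. Rictor beside Osmr had 0.03. Larger differences lay beside Csf2 and Lifr. P4ha2, a prolyl hydroxylase subunit gene 116 kb from Csf2, had 556 counts in the control library and 1907 with TNF-α, a log2 ratio of 1.52 (95% counting interval 1.38 to 1.66). Acsl6, an acyl-CoA synthetase gene 54.1 kb away on the other side, had 428 and 61 counts, a log2 ratio of -3.03 (95% counting interval -3.48 to -2.68). Egflam, an extracellular matrix gene 8.63 kb from Lifr, had 180 and 40 counts, a log2 ratio of -2.37 (95% counting interval -2.96 to -1.93).

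The genes nearest to the members by distance of log2 CPM over the 2 libraries were Eny2 and Tagln2 for Csf1 (distances 0.0318 and 0.0377), Scarb1 and Mastl for Lif, RP23-128C4.4 and A930012O16Rik for Clcf1, Pof1b and Polb for Lifr (0.0090 and 0.0208), and Tnpo1 and Lin7c for Osmr. With 2 libraries, such nearness says only that a gene had a like level in each.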
